A study of Mus musculus with 17 samples.

Results

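The nuclear genes for the subunits of oxidative phosphorylation were followed, complex by complex, in extensor digitorum longus (EDL) muscle of 17 aged mice. They were taken from the deposited table by gene symbol: Ndufa, Ndufb, Ndufc, Ndufs and Ndufv genes for complex I, Sdha to Sdhd for complex II, Uqcr genes for complex III, Cox4 to Cox8 genes for complex IV and Atp5 genes for complex V, without pseudogene symbols. The rule gave 85 of 36172 rows, with 37 for complex I, 4 for complex II, 8 for complex III, 18 for complex IV and 18 for complex V. Ndufab1 and Cyc1, subunit genes of complexes I and III, did not match the rule, so figures for these complexes leave them out. After a filter on low counts 82 remained among 13965 genes tested, and the 3 lost were Cox7b2, Cox8c and Atp5l2.

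EDL is a fast-twitch leg muscle that extends the toes. A group of 10 mice carried an empty vector (5 females and 5 males) and 7 carried a Hand2 vector (4 females and 3 males), and the series title names preservation of sympathetic neurons, in which the transcription factor Hand2 acts, and sarcopenia, the loss of muscle with age, as its subject. Animals were 22 months old (empty-vector replicates 1, 2 and 10, and Hand2 replicates 1, 2, 3 and 4) or 23 months old (the other 10). The strain, the kind of vector, its promoter, its route and the time since it was given are not stated in the labels.

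Oxidative phosphorylation takes electrons from NADH at complex I and from succinate at complex II, passes them through complex III to oxygen at complex IV, and uses the proton gradient so made to form ATP at complex V. Complexes I, III, IV and V combine subunits from nuclear genes with subunits from the mitochondrial genome, while complex II is wholly nuclear. Muscle makes its own forms of several complex IV subunits, among them Cox6a2, Cox7a1 and Cox8b, beside forms found in most tissues. The deposited counts held 0 rows on the mitochondrial chromosome, so genes of the mitochondrial genome were not analysed and are not in the library totals. In whole muscle, fewer cells or fibres of a type and less RNA per cell cannot be told apart.

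Library totals ran from 19181208 to 30942818 estimated counts. Hand2 mRNA, in CPM (counts scaled by library size and trimmed means), ran from 0.071 to 0.940 in the empty-vector group and from 1.02 to 26.3 in the Hand2 group, and the groups did not overlap. The fast myosin Myh4 was high in every library (19000 to 31790 CPM), and the summed markers of slow fibres were lower in males (154 to 350 CPM) than in most females (304 to 1480 CPM). Markers of sperm were at or near 0 (at most 0.186 CPM summed). Empty-vector replicates 2, 9 and 10 stood apart in the respiratory genes themselves. Values without them are given as descriptions, since these animals were picked for those levels after they were seen.

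Respiratory-chain genes were among the most abundant transcripts of the muscle. Per kilobase of transcript, the median of the 82 genes was 345 CPM per kb, against 5.27 CPM per kb over the 13261 tested genes with a known length. Of the 82 genes, 75 lay in the top 5% of that scale and 31 in the top 1%. Together the 85 genes took 3.26% to 4.20% of a library's counts. Complex V took 1.29% ± 0.0939 (SD, n = 17) and complex I 1.06% ± 0.0796, followed by complex IV with 0.504% ± 0.0398, complex III with 0.385% ± 0.0304 and complex II with 0.288% ± 0.0203.

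**Figure D1:**
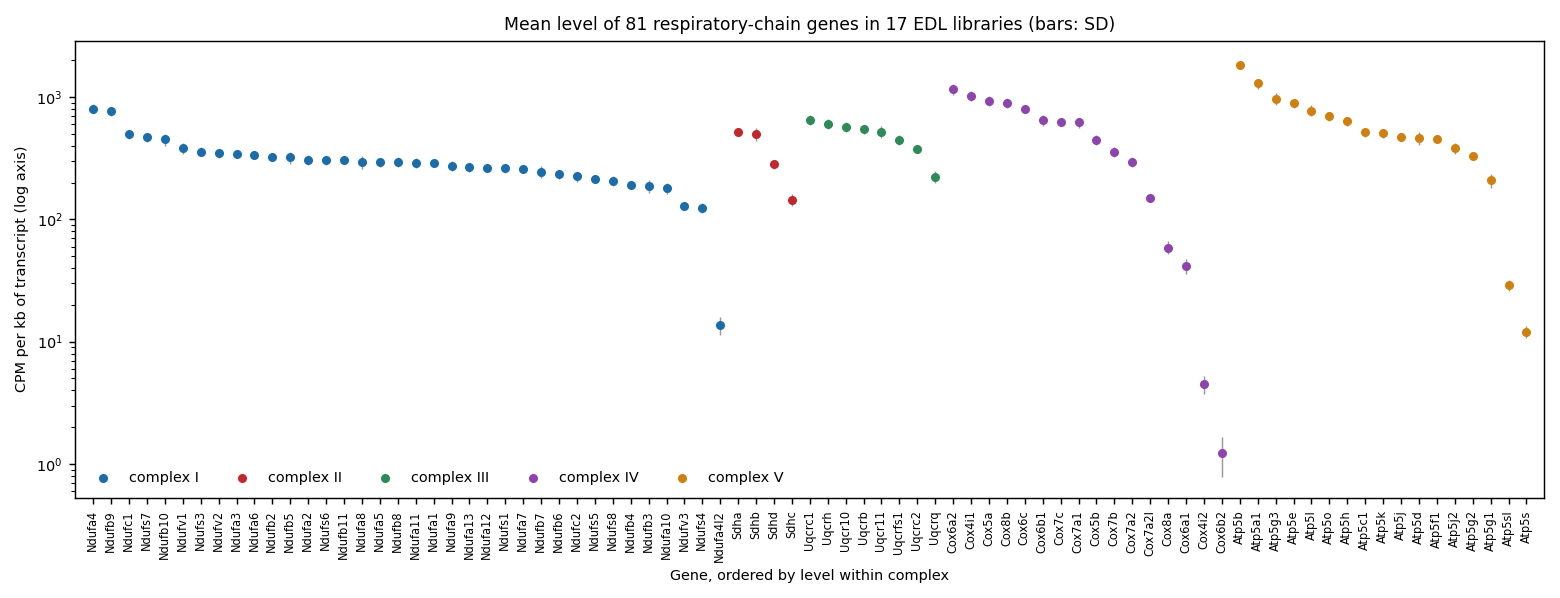
Mean level of 81 of the 82 genes over 17 libraries (vertical axis, CPM per kb of transcript, logarithmic; bars are the SD), ordered by level within each complex (horizontal axis). Most genes lie above 100 CPM per kb, and the low points are Ndufa4l2, Cox8a, Cox6a1, Cox4i2, Cox6b2, Atp5sl and Atp5s.

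The 37 genes of complex I had a median of 294 CPM per kb, and 36 of them were in the top 5% of genes. The 7 conserved core subunits, which carry the flavin, the iron-sulfur clusters and the quinone site, had a median of 359 CPM per kb, and the 30 accessory subunits had 289 CPM per kb. Ndufs8, a core iron-sulfur subunit, stood at 207 CPM per kb, the lowest of the 7. The highest was Ndufa4 with 807 ± 67.3 CPM per kb (SD, n = 17); it was first described in complex I and is now assigned to complex IV. The lowest was its relative Ndufa4l2, a gene known for induction by low oxygen, with 13.7 ± 2.25 CPM per kb.

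Complex II, succinate dehydrogenase, ranged from 520 ± 35.8 CPM per kb for Sdha, the flavoprotein, and 497 ± 60.1 for Sdhb, the iron-sulfur protein, to 145 ± 15.4 for Sdhc, a membrane anchor. In complex III the highest level per length was 655 ± 65.2 CPM per kb for Uqcrc1, a core protein on the matrix side, and the lowest was 224 ± 25.8 for Uqcrq, a small membrane subunit. All 12 genes of complexes II and III were in the top 5% of genes on the per-length scale.

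Complex V held the highest gene on that scale, Atp5b, with 1825 ± 132 CPM per kb, which ranked 24 among the genes with a length. Atp5b encodes the catalytic beta subunit, and Atp5a1, the alpha subunit, stood at 1295 ± 119 CPM per kb. Among the other subunits of the enzyme's head, Atp5e (epsilon) reached 889 ± 79.7 CPM per kb, while Atp5c1 (gamma) had 515 ± 39.7 and Atp5d (delta) 462 ± 54.1. The lowest were Atp5sl, now named as an assembly factor of complex I, with 28.9 ± 2.90, and Atp5s, also called coupling factor B, with 12.1 ± 1.43 CPM per kb. Atp5l2, typed as a pseudogene in the table, was at 0 in all 17 libraries.

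Complex IV had the widest spread of levels. Cox6a2 led with 1159 ± 126 CPM per kb, followed by Cox4i1 with 1024 ± 91.6 and Cox5a with 931 ± 91.8. At the other end Cox4i2, a form known from lung, had 4.51 ± 0.775 CPM per kb, and Cox6b2, known from testis, had 1.22 ± 0.434. Cox7b2, another testis form, had 9 counts over all 17 libraries, and Cox8c was at 0 in all of them, which allows a level of up to 0.097 to 0.156 CPM depending on the library. That limit is 3 counts of a library's total and covers counting error only.

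The muscle forms outweighed the general forms, to unequal degrees. Per length, Cox6a2 made up 96.5% ± 0.372 of Cox6a2 plus Cox6a1 (SD, n = 17), and the lowest library had 95.9%. Cox8b made up 93.8% ± 0.620 of Cox8b plus Cox8a, with a range of 92.5% to 94.8%. Cox7a1 made up only 67.7% ± 1.30 of Cox7a1 plus Cox7a2, with a range of 64.9% to 70.1%. The ranges of these 3 pairs did not overlap at the lengths taken, and the SDs do not cover the choice of length. For Cox7a1 and Cox7a2 the lengths were 393 and 659 bases. Without length, their counts over all libraries were 107628 and 86095. Cox4i2 was 0.440% ± 0.0752 of the Cox4 pair, Ndufa4l2 was 1.66% ± 0.250 of its pair with Ndufa4, and Cox6b2 was 0.189% ± 0.0706 of its pair with Cox6b1.

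The membrane ring of complex V is built from subunit c, and Atp5g1, Atp5g2 and Atp5g3 encode the same mature protein with different import sequences. Atp5g3 had 968 ± 107 CPM per kb, Atp5g2 had 331 ± 22.4 and Atp5g1 had 209 ± 26.9. The order of Atp5g1 depended on the transcript taken: its level was 929 CPM per kb with its shortest transcript and 117 with its longest. Without length, Atp5g3 had 695 ± 77.0 CPM, Atp5g1 554 ± 71.5 and Atp5g2 242 ± 16.4.

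Promoter sequences are shown for the cytochrome oxidase pair whose ratio differed between the sexes, for Cox6a1, and for the c-ring genes Atp5g2 and Atp5g3. They are the 250 bases before the gene's start in RefSeq (build GRCm38.p6), 5′ to 3′ on the gene's own strand, and capitals mark a match to any of 3 motifs searched on both strands. These were GCGCATG, the core bound by nuclear respiratory factor 1 (NRF1), CCGGAAG, a core of the ETS family that includes GABPA, and AAGGTCA, a core of the estrogen-related receptors (ERR). Cox8b lies at chr7:140900447-140900696, Cox8a at chr19:7217617-7217866, Cox6a1 at chr5:115348959-115349208, Atp5g2 at chr15:102671048-102671297 and Atp5g3 at chr2:73911327-73911576, all on the minus strand.
Cox8b: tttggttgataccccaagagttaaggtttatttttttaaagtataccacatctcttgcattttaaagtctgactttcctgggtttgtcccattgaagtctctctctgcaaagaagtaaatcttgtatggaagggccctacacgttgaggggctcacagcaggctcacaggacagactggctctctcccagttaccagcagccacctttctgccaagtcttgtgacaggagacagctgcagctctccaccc
Cox8a: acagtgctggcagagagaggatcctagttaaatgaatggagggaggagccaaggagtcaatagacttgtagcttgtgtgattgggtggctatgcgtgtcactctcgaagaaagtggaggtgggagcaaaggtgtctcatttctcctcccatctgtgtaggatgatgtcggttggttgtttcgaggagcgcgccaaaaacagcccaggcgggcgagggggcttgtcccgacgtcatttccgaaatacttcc
Cox6a1: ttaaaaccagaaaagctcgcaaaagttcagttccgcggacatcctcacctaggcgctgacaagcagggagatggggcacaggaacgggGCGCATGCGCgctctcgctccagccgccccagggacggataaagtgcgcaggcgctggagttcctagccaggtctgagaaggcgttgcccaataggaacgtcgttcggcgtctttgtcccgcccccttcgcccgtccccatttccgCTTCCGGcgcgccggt
Atp5g2: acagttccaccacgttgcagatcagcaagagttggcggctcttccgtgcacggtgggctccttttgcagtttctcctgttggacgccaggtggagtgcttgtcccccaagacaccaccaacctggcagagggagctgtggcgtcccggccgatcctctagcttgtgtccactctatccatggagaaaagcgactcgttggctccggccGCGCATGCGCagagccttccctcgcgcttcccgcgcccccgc
Atp5g3: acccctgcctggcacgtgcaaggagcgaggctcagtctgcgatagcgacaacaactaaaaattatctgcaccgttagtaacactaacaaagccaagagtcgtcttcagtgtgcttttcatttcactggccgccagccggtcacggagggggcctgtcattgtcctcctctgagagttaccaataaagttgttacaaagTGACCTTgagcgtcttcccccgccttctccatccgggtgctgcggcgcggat
Neither Cox8b nor Cox8a held any of the 3 motifs in this window. The windows of the c-ring gene Atp5g1 and of Cox7a1 and Cox7a2, which are not shown, held none either. In Cox6a1 a palindrome of the NRF1 core began 162 bases before the start and an ETS core lay 16 bases before it. In Atp5g2 the NRF1 palindrome began 42 bases before the start, and in Atp5g3 an ERR core lay 52 bases before it, with the RefSeq start of Atp5g3 32 bases from the table's. RefSeq gave a promoter for 69 of the 85 genes. The NRF1 core was in 10 of 69 promoters (14.5%) against 3.68% of 27025 promoters of all genes. The ETS core was in 12 of 69 (17.4%) against 7.83%, and the ERR core in 5 of 69 (7.25%) against 4.70%. Atp5l held all 3 motifs. A match is a stretch of letters and does not show that a factor binds there.

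The 82 genes varied largely together from animal to animal. The median coefficient of variation over the 17 libraries was 8.99% for the 82 genes and 15.03% over all genes tested, from 5.52% for Ndufb2, an accessory complex I subunit, to 35.6% for Cox6b2. On the scale log2(CPM + 0.5), the median SD of a gene over libraries was 0.124. After each library's mean over the 82 genes was subtracted it was 0.053, and 80 of 82 genes had a smaller SD than before. Without empty-vector replicates 2, 9 and 10, the median SD was 0.070 before that step and 0.048 after it, and it was smaller for 69 of 82 genes. Ndufb9, a complex I accessory subunit, and Atp5o, the stalk protein OSCP, kept least of their own variation, with SDs of 0.026 and 0.027. The genes that kept most were Cox6b2 (0.296), Cox4i2 (0.212), Ndufa4l2 (0.211), Atp5s (0.175), Cox6a1 (0.146) and Cox8a (0.121), all low in level.

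The highest levels were in 3 empty-vector animals. In replicates 2, 9 and 10 of that group, 78, 81 and 81 of the 82 genes were above their own mean, by a mean log2 deviation of 0.19, 0.16 and 0.27. Replicate 10 was the highest library for the share of counts in all 5 complexes. In empty-vector replicates 1 and 8 and in Hand2 replicate 1, only 3 of 82 genes were above their mean, with mean deviations of -0.10, -0.10 and -0.08. The Hand2 animals spanned a narrower range, from -0.08 to 0.06, than the empty-vector animals, from -0.10 to 0.27.

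**Figure D2:**
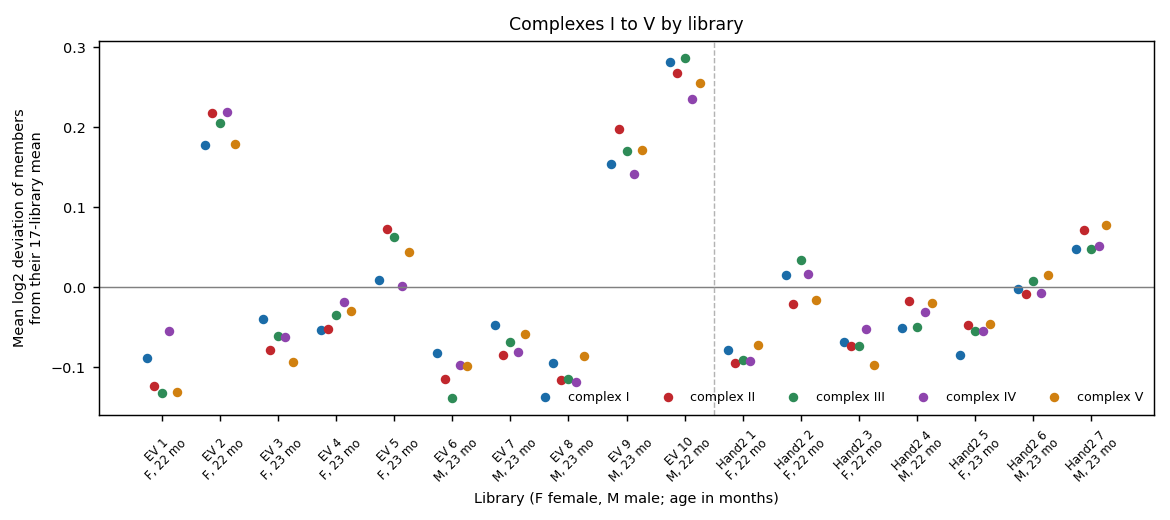
Mean log2 deviation of the genes of each complex from their 17-library mean (vertical axis) in each library (horizontal axis; EV is empty vector, F female, M male, with age in months), 1 coloured point per complex. All 5 complexes are high in EV 2, EV 9 and EV 10 (0.14 to 0.29) and differ little from each other within a library.

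In fast-fibre myosins, empty-vector replicates 2 and 10 differed from the others, while replicate 9 lay within the range of the other animals. Myh2, the myosin of oxidative type 2A fibres, stood at 6398 CPM in empty-vector replicate 2, 4542 in replicate 10 and 2560 in replicate 9, and between 1357 and 3463 CPM elsewhere. Myh1, of type 2X fibres, stood at 10340, 11140 and 9032 CPM in replicates 2, 10 and 9. Empty-vector replicate 5 had the highest Myh1 of all, 12020 CPM, with a mean respiratory deviation of only 0.02. Myh4, of type 2B fibres, was lowest in replicate 10 (19000 CPM) and was 21400 and 26370 CPM in replicates 2 and 9. Endothelial markers summed to 541, 564 and 513 CPM in replicates 2, 10 and 9, against 386 to 528 elsewhere. Markers of fibroblasts summed to 509, 517 and 712 CPM in these 3 animals, against 574 to 1342 CPM in the others. Macrophage markers were lowest in the same 3, at 114, 92.8 and 76.1 CPM in replicates 2, 10 and 9, against 127 to 213 CPM elsewhere. Fat-cell markers were highest in replicates 2 and 10 (330 and 324 CPM) and stood at 249 CPM in replicate 9, against 177 to 279 CPM elsewhere. Their part in the respiratory levels was not tested.

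Between vectors, no respiratory gene passed the test. By edgeR's quasi-likelihood test, 0 of 82 genes had an adjusted p under 0.05, as 0% of all 13965 genes did, and 0 of 82 had an unadjusted p under 0.05, as 705 of all genes (5.05%) did. DESeq2 and limma-voom also called 0. Limma-voom was run throughout with quality weights, which give less weight to more variable libraries. The fitted log2 fold change of Hand2 against empty vector was below 0 for 75 of 82 genes, with a median of -0.05, against 51.7% of all genes and a median of -0.00. With limma-voom the median over the 82 genes was -0.03. The median was -0.06 in complexes I and II, -0.05 in complexes III and IV and -0.03 in complex V. For 80 of the 82 genes the 95% interval lay within a 1.25-fold change in either direction, and the exceptions were Cox4i2 and Cox6b2. Markers of macrophages and fibroblasts lay on the other side of 0. Above 0 were 8 of 8 macrophage markers (median 0.19, 3 at an unadjusted p under 0.05). So were 6 of 6 fibroblast markers (median 0.21, 1 at that level), with 0 called. Other cell types were mixed: endothelial markers ran from -0.18 for Kdr to 0.10 for Tek. Fat-cell markers ran from -0.42 for Cfd to 0.92 for Lep, and Schwann cell markers from -0.27 for S100b to 0.48 for Sox10. Macrophage markers summed to 76.1 to 213 CPM with the empty vector and 128 to 187.5 with Hand2, and fibroblast markers to 509 to 1139 and 735 to 1342 CPM. Their part in the shift was not tested.

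The smallest p belonged to Ndufb2. It ran from 143 CPM through a median of 149 to 171 in the empty-vector group and from 137 through 145 to 150 in the Hand2 group. The groups overlapped between 143 and 150 CPM, and the log2 fold change was -0.07 ± 0.04 (SE; edgeR adjusted p = 0.921). Ndufs5, an accessory complex I subunit, gave -0.09 ± 0.05 with the same adjusted p. Sdhb ran from 488 through 545 to 733 CPM with the empty vector and from 521 through 541 to 591 with Hand2, and gave -0.09 ± 0.08 (adjusted p = 0.927). The 2 highest Sdhb values were 733 CPM in empty-vector replicate 10 and 714 CPM in replicate 2, and all other animals lay at or below 633 CPM. Uqcr11, a small complex III subunit, gave -0.09 ± 0.07, and Cox6a1 -0.12 ± 0.09.

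The c-ring genes were close to the rest. Atp5g2 ran from 228 through 248 to 271 CPM with the empty vector and from 216 through 238 to 249 CPM with Hand2, for a log2 fold change of -0.08 ± 0.05 (edgeR adjusted p = 0.921). Atp5g1 gave -0.11 ± 0.08 and Atp5g3 -0.04 ± 0.07. Nearest to 0 among the abundant genes of complexes II and V were Atp5b (beta), Atp5a1 (alpha) and the flavoprotein Sdha. They gave 0.00 ± 0.05, -0.01 ± 0.06 and 0.02 ± 0.05, in that order. The ranges of the vector groups overlapped for all 82 genes. The share of all genes with separate groups is not given here, so this count cannot be read against it.

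**Figure D3:**
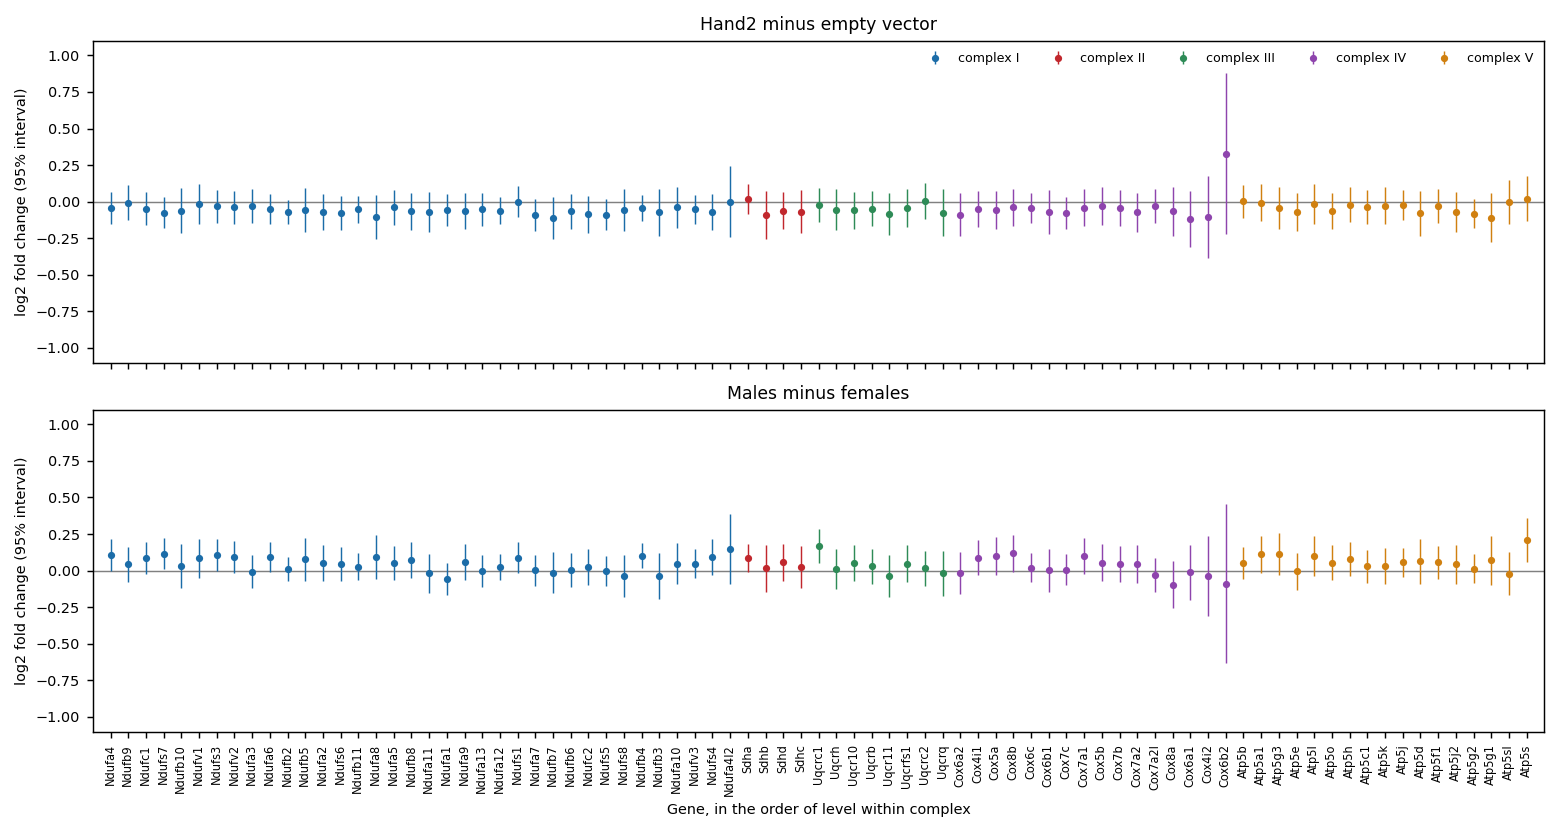
Log2 fold change of 81 of the 82 genes, each with its 95% interval (vertical axes) in the order of level within each complex (horizontal axis), for Hand2 minus empty vector (upper panel) and males minus females (lower panel). Most points in the upper panel lie just below 0 with intervals that include it, and most in the lower panel just above 0.

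The size of the shift between vectors changed with the animals and the model used. Without empty-vector replicate 2 the median over the 82 genes was -0.02, and without replicate 10 it was -0.03. With age as a term it was -0.08, with 76 of 82 genes below 0 and 0 called. In that fit 5 of 82 had an unadjusted p under 0.05 by edgeR, and the share of all genes at that level is not given here. Without replicates 2, 9 and 10 together the direction turned: 9 of 82 genes were below 0, 0 passed, and the median was 0.04. By complex it was then 0.02 in complex I, 0.04 in complexes II and IV and 0.05 in complexes III and V. The values of Ndufb2 and Atp5g2 were then -0.03 and -0.03, those of Ndufs5 -0.02 and Cox6a1 -0.00, and Sdhb, Uqcr11 and Atp5g1 lay above 0 at 0.03, 0.02 and 0.02. In females 80 of 82 genes were below 0, with a median of -0.06, and 0 passed (0% of all genes; 0 at an unadjusted p under 0.05). The female median was -0.01 without empty-vector replicate 2, -0.02 with library size only, -0.03 with limma-voom and -0.09 with age as a term. In males 70 of 82 were below 0, with a median of -0.04, and 0 passed (0% of all genes; 1 at an unadjusted p under 0.05). Without empty-vector replicate 10 the male median was 0.02 and 22 of 82 genes were below 0. It was -0.02 without empty-vector replicate 9 or Hand2 replicate 4, -0.07 without Hand2 replicate 7, and -0.08, -0.07 and -0.08 without empty-vector replicates 6, 7 and 8. It was -0.02 with limma-voom, -0.07 with library size only and 0.09 without empty-vector replicates 2, 9 and 10. In that last fit 4 of 82 genes were below 0, with 0 called. It left out empty-vector replicates 9 and 10 because they were high in these genes, which by itself raises the male median. The male gene with the unadjusted p under 0.05 was Cox6b2, with a log2 fold change of 0.89 ± 0.35, at 1.11 CPM or less in every library. The difference in the vector effect between sexes passed for 0 of 82 genes by edgeR (0% of all genes; 1 at an unadjusted p under 0.05, again Cox6b2).

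The comparison of vectors was also made within each age. Among animals of 22 months 81 of 82 genes were below 0 with Hand2, with a median of -0.16. None of them passed (0% of all genes did), and 16 of 82 (19.5%) had an unadjusted p under 0.05, as 13.2% of all genes did. Without empty-vector replicate 2 the median at 22 months was -0.10 with 1 gene at that level, and without replicate 10 it was -0.11 with 2. Among animals of 23 months 32 of 82 were below 0, with a median of 0.01, and 0 passed (0% of all genes; 1 at an unadjusted p under 0.05). A model with a term for the difference between ages, added after these values were seen, gave a higher Hand2 effect at 23 months for 81 of 82 genes, with a median of 0.17. None of the 82 passed (edgeR; 0.38% of all genes did), and 18 (22.0%) had an unadjusted p under 0.05, against 16.4% of all genes; other tools were not run on this term. The median difference was 0.13 without empty-vector replicate 2 and 0.11 without replicate 10. Without both it was -0.01, with 30 of 82 genes above 0 and 1 empty-vector animal of 22 months left, which is assumed to vary like the others. Macrophage markers were below 0 on this term for 8 of 8 (median -0.42), and their part was not tested. The smallest adjusted p was 0.113 for Cox6a2, with a difference of 0.38 ± 0.11. It was 0.26 without empty-vector replicate 2, 0.35 without replicate 10 and 0.11 without both. The 22-month empty-vector group holds 3 animals, replicates 1, 2 and 10, with mean respiratory deviations of -0.10, 0.19 and 0.27. Cox6a2 stood at 747, 1042 and 940 CPM in these 3 and at 722, 725, 720 and 760 CPM in the 4 Hand2 animals of that age. Only 1 male per vector was 22 months old.

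Between sexes no respiratory gene passed either. By edgeR 0 of 82 were called, against 5.63% of all genes (2.91% higher and 2.72% lower in males), and 5 had an unadjusted p under 0.05, as 3017 of all genes did. DESeq2 also called 0, while limma-voom called 1. The share of all genes called by these tools is not given here. The log2 fold change of males against females was above 0 for 64 of 82 genes, with a median of 0.05, against 0.00 over all genes. Without empty-vector replicate 10 the median was 0.01 and 34 of 82 were below 0, without replicates 1 or 9 it was 0.03, and without replicate 2 it was 0.07. Without replicates 2, 9 and 10 it was 0.01, and with age as a term it was 0.07. With that term 5 of 82 genes were below 0, 10 had an unadjusted p under 0.05 by edgeR, and 0 were called. The share of all genes at that level is not given here. With upper-quartile scaling 8 of 82 were below 0, against 18 in the main analysis. The median by complex was 0.06 in complex V, 0.05 in complex I, 0.04 in complex II, 0.02 in complex III and 0.01 in complex IV. Complexes II (4 of 4 genes) and V (15 of 17) were mostly above 0, and complex IV was mixed, with 10 above and 6 below.

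Uqcrc1 had the smallest p between sexes. It ran from 954 through 1001 to 1125 CPM in females and from 1021 through 1127 to 1305 CPM in males. The groups overlapped between 1021 and 1125 CPM, and the log2 fold change was 0.17 ± 0.06 (edgeR adjusted p = 0.0783). It passed under upper-quartile scaling (adjusted p = 0.0487), with library totals alone (0.0442) and in limma-voom (0.0468). Atp5s gave 0.21 ± 0.07 (adjusted p = 0.0956) and Ndufb4, a membrane-arm accessory subunit, 0.10 ± 0.04 (adjusted p = 0.149). The X-linked genes Ndufb11, Ndufa1 and Cox7b gave 0.03, -0.06 and 0.04, and none was called.

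The ratio of Cox8b to Cox8a was higher in males. Cox8b ran from 289 through 301 to 374 CPM in females and from 306 through 325 to 401 CPM in males, and Cox8a from 29.0 through 32.4 to 43.6 CPM in females and from 27.5 through 30.8 to 37.2 CPM in males. Both genes overlapped widely between sexes, and alone gave 0.12 ± 0.06 and -0.10 ± 0.08 in edgeR, neither called. Taken within each library, where depth and scaling cancel, the log2 ratio of counts was 3.22 ± 0.13 in females (SD, n = 9) and 3.43 ± 0.10 in males (n = 8). The difference of 0.20 had an exact permutation p of 0.00272 (two-sided, over 24310 splits of the 17 animals), and 0.0190 after Benjamini-Hochberg adjustment over 7 pairs. Per length, the Cox8b share was 93.4% ± 0.534 in females, from 92.5% to 94.3%, and 94.3% ± 0.375 in males, from 93.7% to 94.8%. When any single animal was left out, the difference stayed between 0.18 and 0.23 and its adjusted p between 0.00544 and 0.0404. In the 10 empty-vector animals alone it was 0.16, with an exact permutation p of 0.0476 and an adjusted p of 0.333. Slow-fibre markers also differed between sexes (8 of 8 lower in males by edgeR), as did 5 of 7 fat-cell markers (lower in males; summed 177 to 330 CPM in females and 182 to 324 CPM in males), and their part in the ratio was not tested.

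**Figure D4:**
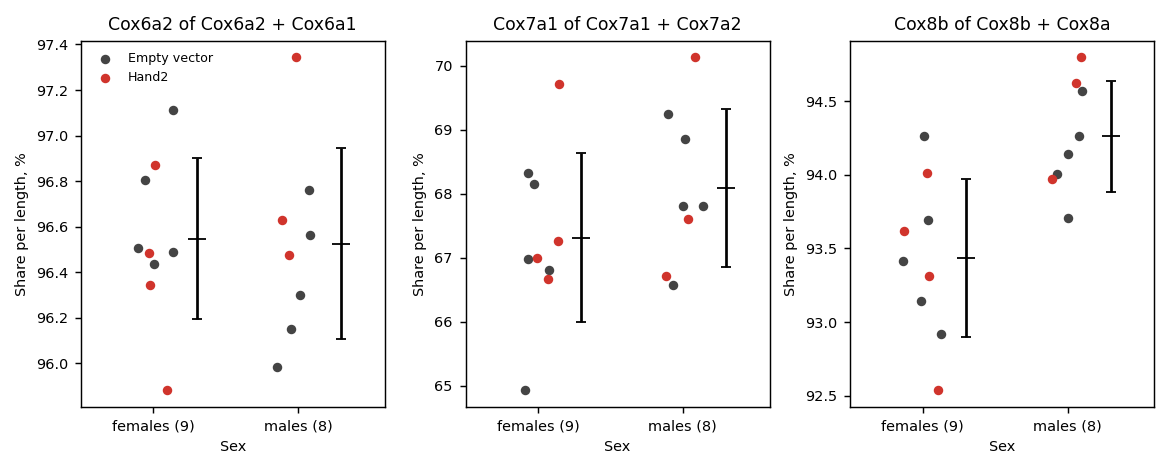
Share of the muscle form in each of 3 complex IV pairs, per transcript length (vertical axes, %, not starting at 0), in 9 females and 8 males (horizontal axes), with points coloured by vector and the mean and SD of each sex at the right of its points. The Cox8b share is 93.4% in females and 94.3% in males, while the Cox6a2 and Cox7a1 shares overlap between the sexes over most of their range.

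The other pairs did not pass between sexes. The log2 ratio of males against females differed by -0.01 for Cox6a2 to Cox6a1 and by 0.05 for Cox7a1 to Cox7a2 (exact permutation adjusted p = 0.943 and 0.414). It differed by -0.04 for Atp5g1 to Atp5g3, -0.09 for Atp5g2 to Atp5g3, 0.04 for Ndufa4l2 to Ndufa4 and -0.13 for Cox4i2 to Cox4i1. Between vectors 0 of 7 ratios passed and 0 had an unadjusted exact permutation p under 0.05. The smallest p was that of Atp5g1 to Atp5g3, with a difference of -0.06 (p = 0.121, adjusted 0.845, over 19448 splits). The pairs of Cox6b2 and Cox7b2 were too low to test.

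The genes around the respiratory chain gave few calls, and between sexes these are read against the 5.63% of all genes called (2.91% higher and 2.72% lower in males). Of 9 regulators of respiratory genes, 0 passed between vectors; the coactivator Ppargc1a gave -0.17 ± 0.12, its relative Ppargc1b -0.17 ± 0.16, the receptors Esrra -0.06 ± 0.08 and Esrrg -0.18 ± 0.16, and the mitochondrial transcription factor Tfam -0.03 ± 0.04. Between sexes the nuclear receptor Ppard fell in males by 0.35 ± 0.06 on the log2 scale (edgeR adjusted p = 0.00191), and the other 8 did not pass. Among 40 tested assembly factors of 48 listed, 2 rose in males: Coa5, which serves complex IV, by 0.16 ± 0.04 (adjusted p = 0.0231) and Ndufaf6, which serves complex I, by 0.20 ± 0.05 (adjusted p = 0.0337). Of 13 tested genes of mitochondrial DNA upkeep, Polg, the mitochondrial DNA polymerase, fell in males by 0.20 ± 0.05 (adjusted p = 0.0306). Polg, Coa5 and Ndufaf6 missed the threshold when age was added to the model (adjusted p = 0.0534, 0.0549 and 0.0676), and all 4 genes missed it with a surrogate variable and in the empty-vector animals alone. Coa5 missed it without Hand2 replicate 6 (adjusted p = 0.0574). Ndufaf6 missed it without any of empty-vector replicates 2, 3, 7, 8 and 9 and Hand2 replicates 1, 2, 6 and 7 (adjusted p from 0.0508 to 0.0696). Polg missed it without any of empty-vector replicates 3, 7, 8 and 9 and Hand2 replicates 1, 2, 3, 6 and 7 (adjusted p from 0.0506 to 0.0671). None passed in either comparison among 5 further genes outside the symbol rule, among them Cycs and the subunit genes Cyc1 and Ndufab1. The same held for 20 genes of the TCA cycle and pyruvate dehydrogenase, 12 carriers and channels and 12 of coenzyme Q synthesis. Between vectors 3 assembly factors and 1 coenzyme Q gene had an unadjusted p under 0.05, beside the 5.05% of all genes.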

How the data were processed

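RNA of EDL muscle from 17 mice was prepared with a TruSeq v2 kit, per the labels' protocols, and the genome build was mm10, per the submitters' processing notes. The authors deposited estimated counts per gene locus, not scaled for depth, and normalized log2 values, per the file headers. The tools for alignment and counting, the use of strand and the treatment of reads shared with pseudogenes or paralogs were not given in the sources used here, so counts of genes with near copies are uncertain. Members and gene lists were chosen with earlier results of these data known.

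Estimated counts were rounded, filtered with filterByExpr (4 vector-by-sex groups, 13965 genes kept), scaled by trimmed means and fitted in edgeR 4.0.16 under R 4.3.3 (quasi-likelihood F test, robust) with vector and sex as terms, or with 4 groups for effects within a sex. P-values were adjusted over all genes by Benjamini-Hochberg at 0.05. Isoform ratios used estimated counts plus 0.5 and exact permutation tests in scipy 1.17.1, for pairs with at least 10 counts in every library. Levels per length used the median length of GENCODE M21 transcripts with a RefSeq link. The genes named were the isoform pairs, the highest and lowest of each complex, up to 4 by smallest p per complex and comparison, genes below the filter, and the regulators; others are named for their role or range and were chosen after their values were seen. Replicate numbers only name animals. Alternatives were DESeq2 1.42.0, limma-voom 3.58.1 with quality weights per library, and other scalings and filters. Further ones had age or 1 surrogate variable from sva 3.50.0 as a term. Others used single ages or the authors' log2 values, or left out each animal. The procedure was tested on simulated data. A result for 1 gene is not reported here.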

Additional observations from a re-analysis of the deposited data

Results flagged for a closer look

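In 3 of 72 groups of one vector and one measure, a sample lay far from the others by Dixon's criterion, which chance passes in about 1 of 20 groups. Atp5g3 was 798.4 CPM in Hand2 replicate 7, with the next Hand2 animal at 694.8 CPM. Ndufb4 was 204.1 CPM in Hand2 replicate 6, with the next at 186.1 CPM. Uqcr11 was 244.4 CPM in Hand2 replicate 2, with the next at 225.0 CPM. All 3 values lay within the range of the empty-vector group, which reached 851, 209 and 291 CPM.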

How the results depend on the processing

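Over the alternatives, 35 recomputed results lost calls, 7 gained calls and 8 single-gene values turned. These tallies hold both counts of calls per setting and single-gene results, so the same call can enter more than once. Medians over the 82 genes moved more: they changed sign in 2 of 32 vector alternatives and 2 of 28 male ones. They ran from -0.16 to 0.04 for the vector, -0.08 to 0.09 in males, -0.11 to -0.01 in females and 0.01 to 0.07 between sexes. No alternative, planned or added, called a respiratory gene between vectors, in either sex or for the difference between sexes. Between sexes 2 of the 82 genes were called with upper-quartile scaling, 1 with library size only and 1 with limma-voom. The share of all genes called under those settings is not given here, so these counts cannot be read against it. Among isoform ratios 0 passed in the empty-vector animals alone. The cause of these differences was not tested. Among animals of 23 months only, the vector log2 fold changes of Atp5g1 (0.0011) and Sdhb (0.043) turned above 0. Without empty-vector replicates 2, 9 and 10, added after seeing the data, so did Atp5g1 (0.023), Cox7c (0.0010), Sdhb (0.032), Sdhd (0.037), Uqcr11 (0.018) and Uqcrq (0.049), and the male median was 0.094. Without the 3 empty-vector females of 23 months, added because earlier results of these data set them apart, the vector median was -0.07 and the sex median 0.03, with 0 respiratory genes called. The female vector median was then -0.11. Most of the calls lost were those of Ndufaf6 and Polg between sexes. The planned pseudocount alternative applies to normalized values and was not needed for counts. No paired analysis was possible because replicate numbers were given in the order of the samples. Cox6b2, with 8.03 counts in its lowest library, and Cox7b2, with 9 counts over all 17 libraries, are limited by depth.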
